A study of Rattus norvegicus with 19 samples.

Results

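The genes described here are 10 genes that mark natural killer and cytotoxic cells: Ncr1, Klrb1a, Klrd1, Klrk1, Gzma, Gzmb, Prf1, Nkg7, Ifng and Eomes. They were found in whole-thymus RNA by matching the accession of each array probe to the rat RefSeq symbol. 9 of the 10 had a probe and all 9 were tested, among 22662 genes tested in all; no probe matched Eomes. The thymus came from 7-week-old female Wistar rats gavaged once a day for 14 days. One group received saline at 10 ml/kg (n = 5 arrays), and the others received corn oil, a vehicle used in toxicology, at 2 ml/kg (n = 5), 5 ml/kg (n = 4) or 10 ml/kg (n = 5). Each group held 6 animals, housed 3 to a cage, and the labels name no genetic change or further agent. Saline was given at a single volume, so liquid and volume differ together at 2 and 5 ml/kg. The labels number the arrays within a group without naming animals or cages, so the p-values measure the spread between these samples.

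Natural killer cells are lymphocytes that kill infected or altered cells without a rearranged antigen receptor. They read their targets through activating and inhibitory surface receptors, many of them lectin-like proteins encoded together in the natural killer gene complex. Killing is carried out by perforin, which opens the target membrane, and by granzymes, the proteases that enter through it, and natural killer cells and cytotoxic T cells share this machinery. The thymus is mainly a site of T cell development and holds few natural killer cells. Several of these receptors and granzymes are also made by T cells.

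Each value is the log2 of an array's background-subtracted intensity minus the 75th percentile of that array, so 1 unit is a doubling and a level can be compared between arrays for the same probe but not between probes. A probe was called well above background by the scanner software, and differences are given as log2 ± SE from limma, with p-values adjusted by Benjamini-Hochberg over all 22662 genes and a threshold of 0.05. The 19 arrays lay on 5 slides, each with 2 groups. On slide 3 were the arrays of saline replicate 5 and of replicates 1 to 3 at 10 ml/kg. These had the most spots flagged as non-uniform, of 42877 per array. Saline replicate 5 had 173 and the 10 ml/kg arrays there had 590, 442 and 589, against 6 to 62 on all other arrays. Flagged spots were left out, and what else this meant for the differences was not tested. Replicates 4 and 5 at 10 ml/kg were on slide 5, next to replicate 2 at 5 ml/kg. Negative controls were brightest on slide 1 (44.9 to 59.6, against 19.5 to 39.7 on the others), the slide of saline replicates 3 and 4 and of replicates 2 and 3 at 2 ml/kg. Well above background were 69.7% to 88.4% of spots. Of 12 thymocyte markers, 11 had a probe, and these were well above background on all 19 arrays, as was Foxn1, the regulator of thymic epithelium. Saline replicate 2 stood apart, with a summed B cell marker level of 2.37 where the highest array of the 2 and 5 ml/kg groups was at -0.05 and that of the 10 ml/kg group at 0.95. It was also the highest saline array for adipocyte (4.79, group median 2.66), erythroid (4.96), mast cell (-1.06) and mature T cell markers (2.47). For neutrophil markers it was the lowest (1.28, group median 2.86).

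RefSeq promoter windows (assembly GRCr8) were found for 8 of the 10 genes, all but Ncr1 and Klrd1. The stretches before the gene start are shown for a member that fell at 10 ml/kg (Klrb1a), for 3 killing genes that did not pass the test (Gzmb, Prf1 and Nkg7), and for a receptor and a granzyme from the wider list that fell (Klri2 and Gzmk). They are written 5′ to 3′ on the gene's strand, end where the annotated gene begins, and carry capitals where they match ACCACA, the core bound by RUNX factors, or GGTGTGA, a core bound by T-box factors such as Eomes, on either strand.
Klrb1a: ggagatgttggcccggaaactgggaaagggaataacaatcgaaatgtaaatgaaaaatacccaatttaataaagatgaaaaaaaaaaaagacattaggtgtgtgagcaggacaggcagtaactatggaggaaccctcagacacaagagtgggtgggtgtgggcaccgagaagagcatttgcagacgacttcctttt
Gzmb: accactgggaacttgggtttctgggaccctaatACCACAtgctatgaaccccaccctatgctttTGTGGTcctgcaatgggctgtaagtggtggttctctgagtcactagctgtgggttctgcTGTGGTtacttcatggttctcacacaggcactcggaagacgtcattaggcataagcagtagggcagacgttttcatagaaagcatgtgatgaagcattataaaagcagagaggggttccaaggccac
Prf1: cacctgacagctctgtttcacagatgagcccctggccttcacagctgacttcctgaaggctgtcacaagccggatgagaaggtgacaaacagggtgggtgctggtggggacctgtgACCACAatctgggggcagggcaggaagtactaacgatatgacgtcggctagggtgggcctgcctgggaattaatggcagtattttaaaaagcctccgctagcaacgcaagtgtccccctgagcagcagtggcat
Nkg7: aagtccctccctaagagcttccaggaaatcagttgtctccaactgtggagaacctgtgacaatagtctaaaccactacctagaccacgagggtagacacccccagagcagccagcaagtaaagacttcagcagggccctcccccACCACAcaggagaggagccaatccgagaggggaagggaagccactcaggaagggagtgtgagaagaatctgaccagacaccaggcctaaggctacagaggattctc
Klri2: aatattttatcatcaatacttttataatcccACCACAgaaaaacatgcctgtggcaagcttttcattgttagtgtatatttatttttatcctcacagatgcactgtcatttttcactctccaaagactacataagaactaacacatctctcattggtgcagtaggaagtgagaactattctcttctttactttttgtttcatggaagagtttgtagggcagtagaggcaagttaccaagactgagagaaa
Gzmk: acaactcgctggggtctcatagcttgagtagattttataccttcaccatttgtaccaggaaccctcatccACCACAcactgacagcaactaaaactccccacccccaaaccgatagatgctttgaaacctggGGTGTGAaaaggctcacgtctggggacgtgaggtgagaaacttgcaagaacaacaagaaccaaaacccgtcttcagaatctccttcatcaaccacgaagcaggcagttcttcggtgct
Klrb1a lies on the minus strand of chromosome 4 (chr4:163590202-163590397), Gzmb on the minus strand (chr15:34462470-34462719), Prf1 on the plus strand (chr20:29788790-29789039), Nkg7 on the plus strand (chr1:102981247-102981496), Klri2 on the minus strand (chr4:164947505-164947754) and Gzmk on the minus strand (chr2:46582016-46582265). ACCACA stood in 5 of the 6 member windows of full length (250 bases): Gzma, Gzmb, Prf1, Nkg7 and Eomes, but not Ifng. It also stood in 7 of the 8 full windows of other listed genes that differed at 10 ml/kg, and in 14.5% of all 33469 windows of that length. GGTGTGA was in none of the 6 member windows and in 1 of the 8 others (Gzmk), against 3.22% of all windows. The shorter Klrb1a window held neither, which says only that these letters are not in that stretch. The letters were chosen after the sequences had been read, and a match is a description, not a binding site. Genes that fell (Klri2), that rose (Gzmc) and that did not pass the test (Gzmb) were among those carrying ACCACA.

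At the volume given to both liquids, 2 of the 9 measured genes differed between 10 ml/kg corn oil and saline, and both were lower. They were Ncr1 and Klrb1a, a pair of natural killer cell receptors. Klrb1a differed by -1.33 ± 0.20. Ncr1 was well above background on no array at 10 ml/kg, so its fitted difference, -3.06 ± 0.45, is not a measured size, and the bound below stands in for it. None was higher. Among all genes tested, 3.54% were lower and 2.80% were higher in that comparison. Of all genes called, 44.1% were higher, against 73.2% after quantile normalization and 76.0% after normexp background correction. The genes of the killing machinery, Gzma, Gzmb, Prf1 and Nkg7, and the cytokine gene Ifng did not pass the test. The median over the 9 genes was -0.26, beside -0.13 over all genes tested. In whole-thymus RNA, fewer cells of a type and less RNA per cell cannot be told apart.

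**Figure D1:**
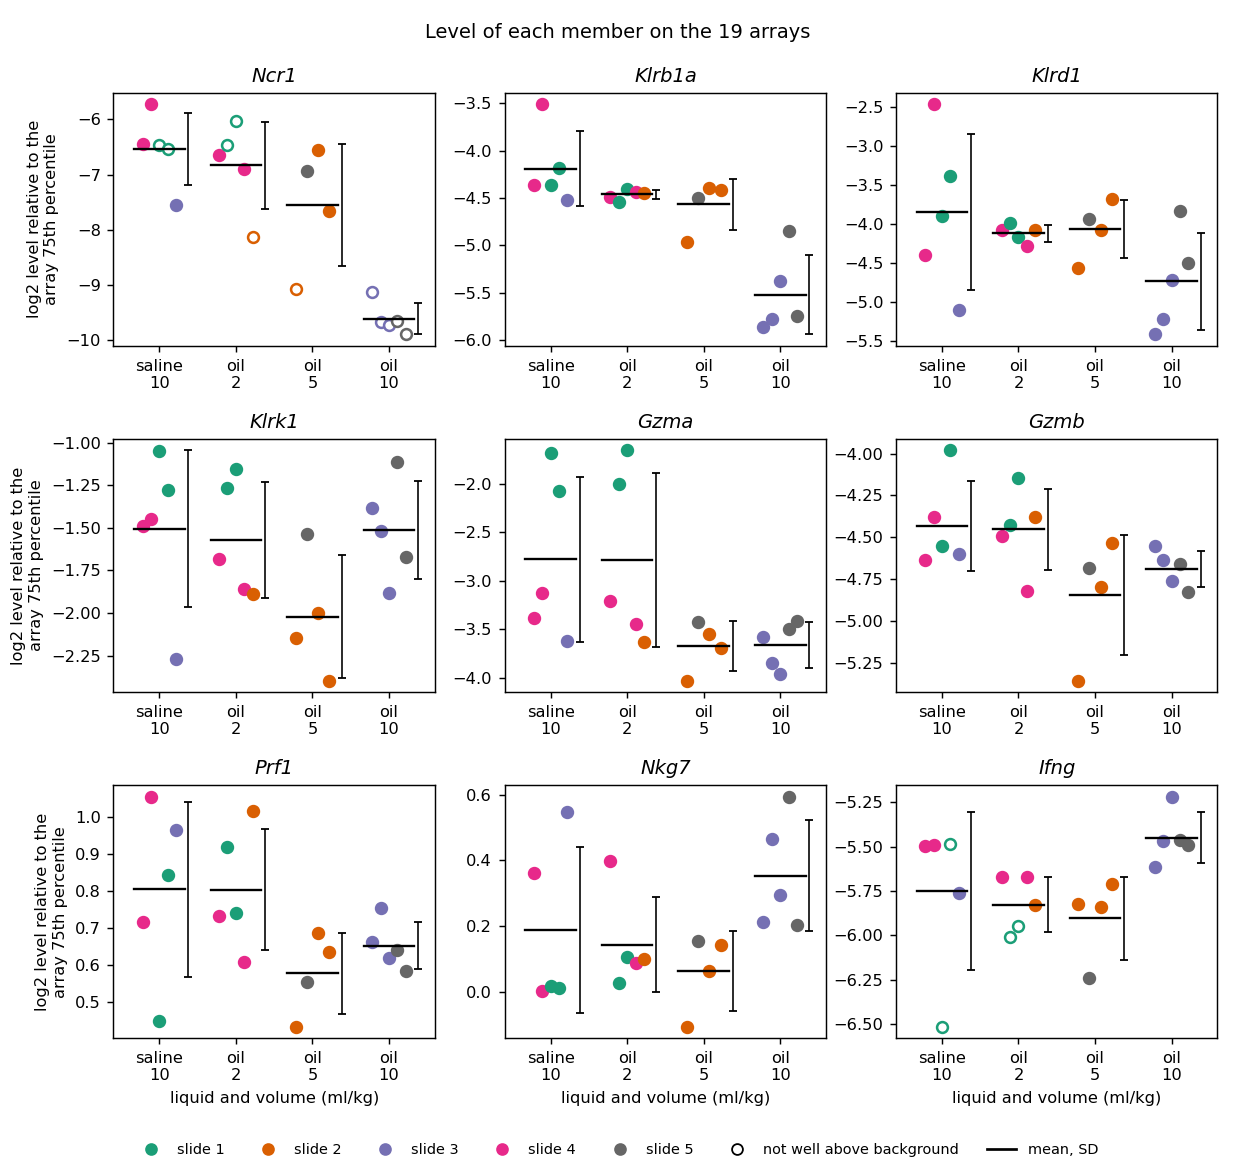
Log2 level relative to the array's 75th percentile (vertical axes, 1 scale per gene) for the 9 measured genes, by liquid and volume in ml/kg. Each point is an array, coloured by slide and open where the probe was not well above background; the line is the group mean and the bar its SD (n = 5, 5, 4 and 5). All 5 points at 10 ml/kg are open for Ncr1, and for Klrb1a they lie below all saline and 2 ml/kg arrays.

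Ncr1 encodes NKp46, an activating receptor that is among the most specific markers of natural killer cells. Its level was -6.44, -5.72, -6.46, -6.54 and -7.55 on saline arrays 1 to 5, and -6.64, -6.46, -6.03, -6.90 and -8.13 at 2 ml/kg. At 5 ml/kg it was -9.06, -6.93, -6.55 and -7.66, and at 10 ml/kg -9.13, -9.67, -9.71, -9.64 and -9.88. The arrays at 10 ml/kg were low, as was replicate 1 at 5 ml/kg, but none of these was well above background, so their values have no order among themselves. The probe was dim: its processed intensity ran from 2.66 to 46.4, and it was well above background on 3 of 5 saline arrays, 2 of 5 at 2 ml/kg, 3 of 4 at 5 ml/kg and 0 of 5 at 10 ml/kg. A group without any such array has only a bound, which is the mean, over its arrays, of the higher of the probe's own level and the lowest level well above background on that array. On that basis Ncr1 was at least 2.77-fold lower at 10 ml/kg corn oil than in saline (means -9.61 and -6.54, bound -8.01). The bound itself was not tested. The limma adjusted p = 0.000495 is that of the fitted difference, which uses the undetected values. The probe met the filter of 4 arrays only through the other groups. Without the saline arrays of slide 1, which were not well above background, the bound was 2.72-fold. The 4 saline and 2 ml/kg arrays on slide 1 were not well above background at levels of -6.54 to -6.03, where dimmer arrays on slide 4 were.

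Klrb1a, which encodes a member of the NKR-P1 receptors long used to recognise rat natural killer cells, was well above background on all 19 arrays. Saline arrays were at -4.37, -3.51, -4.36, -4.18 and -4.52, and 2 ml/kg arrays at -4.48, -4.54, -4.40, -4.44 and -4.44. The 5 ml/kg arrays were at -4.96, -4.50, -4.39 and -4.42, and the 10 ml/kg arrays at -5.86, -5.78, -5.38, -4.85 and -5.74. All 10 ml/kg arrays lay below every saline and 2 ml/kg array, by at least 0.31, and overlapped the 5 ml/kg group through its replicate 1. The difference from saline was -1.33 ± 0.20 (limma adjusted p = 0.000612, n = 5 and 5).

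No array at 10 ml/kg was well above background for Ncr1, so its differences in this paragraph are not measured sizes. Slide was also fitted as a term. As a fixed block it left a difference of -2.16 for Ncr1 (limma adjusted p = 0.0740) and of -1.19 for Klrb1a (0.0652), with no member past the threshold. Most other calls were lost in that fit too: of 19 other listed genes called at 10 ml/kg, 3 still passed. As a random block, slide left -2.58 (limma adjusted p = 0.00590) for Ncr1 and -1.25 (0.00535) for Klrb1a, with both past the threshold. Within slide 3, where 3 arrays at 10 ml/kg lay beside saline replicate 5, the differences were -1.95 and -1.15. On slide 5, the 2 arrays at 10 ml/kg differed from the 5 ml/kg array by -2.83 for Ncr1 and -0.80 for Klrb1a. Saline replicate 2 was the highest of its group for Ncr1, Klrb1a, Klrd1 and Prf1, and without it the differences were -2.86 for Ncr1 (limma adjusted p = 0.00161) and -1.16 for Klrb1a (0.000957). After quantile normalization Ncr1 was at -2.19 (limma adjusted p = 0.00218) and Klrb1a at -0.81 (0.0742). After normexp, whose offset compresses dim signals, they were at -0.32 (0.0213) and -0.43 (0.0727).

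Klrd1 and Klrk1 did not pass the test. Klrd1 encodes CD94, the partner of the NKG2 proteins. It stood at -4.40, -2.46, -3.90, -3.38 and -5.10 on the saline arrays and at -5.42, -5.22, -4.72, -3.83 and -4.49 at 10 ml/kg, with the groups overlapping. The saline arrays were the most spread of any group, and the lowest of them, replicate 5, was the one that shared slide 3 with the 3 lowest 10 ml/kg arrays. The difference was -0.89 ± 0.38 (limma adjusted p = 0.158). Within slide 3 it was -0.02, and the fixed slide block gave -0.26. Leaving out saline replicate 5 gave -1.20, past the threshold (limma adjusted p = 0.0298).

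Klrk1 encodes NKG2D, an activating receptor for stress-induced ligands that is also carried by cytotoxic T cells. Its brighter probe read -1.49, -1.45, -1.05, -1.27 and -2.27 in saline and -1.38, -1.52, -1.88, -1.11 and -1.67 at 10 ml/kg, a difference of -0.01 ± 0.23 (limma adjusted p = 0.987). The 10 ml/kg arrays lay inside the saline range. The dimmer probe differed by 0.60 between the same groups, so the probes of Klrk1 disagreed. Both were well above background on all arrays.

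**Figure D2:**
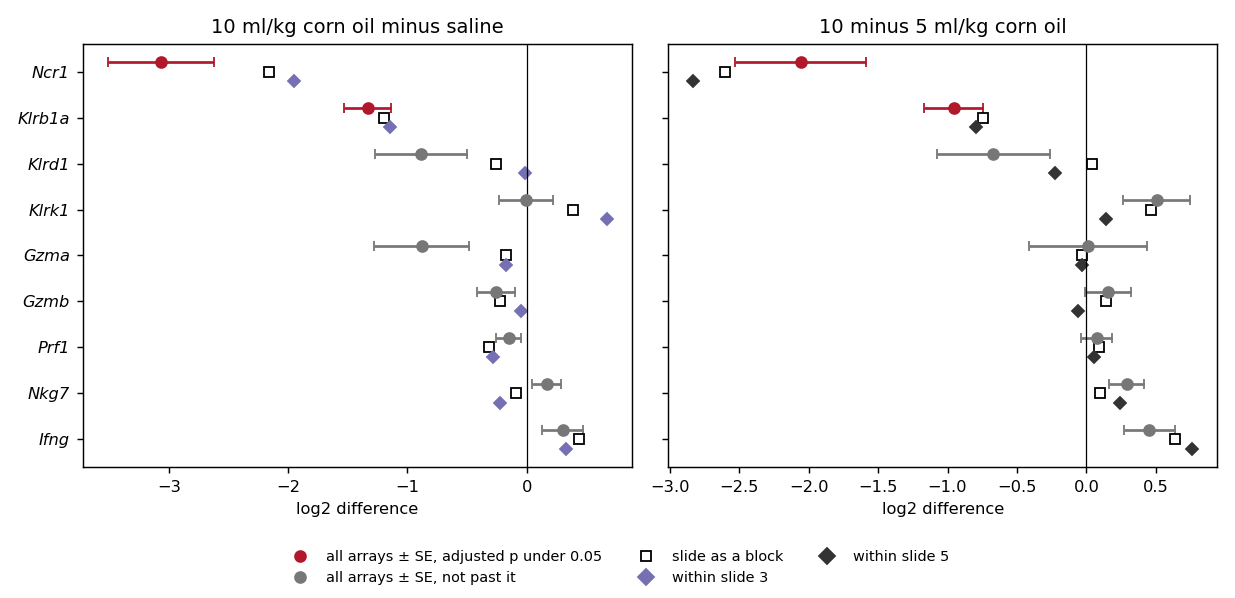
Log2 differences (horizontal axes) of the 9 measured genes for 10 ml/kg corn oil minus saline (left) and minus 5 ml/kg corn oil (right). Circles show all arrays ± SE, red where the adjusted p is under 0.05; squares show the fit with slide as a block and diamonds the plain difference within slide 3 or slide 5. Ncr1 and Klrb1a stay below 0 in all of them, while Klrd1 and Gzma move towards 0 within slide 3.

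Among the granzymes, Gzma was highest on the arrays of slide 1. Gzma encodes granzyme A, a trypsin-like protease. It was between -2.07 and -1.66 on the 4 arrays of slide 1, from saline and 2 ml/kg, and every other saline or 2 ml/kg array was between -3.63 and -3.13. The 10 ml/kg arrays were at -3.58, -3.85, -3.97, -3.50 and -3.42, and the 5 ml/kg arrays ran from -4.03 to -3.43. The 10 ml/kg difference from saline, -0.88 ± 0.40 (limma adjusted p = 0.173), was -0.17 with slide as a block and -0.17 within slide 3.

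Gzmb encodes granzyme B, the protease that cleaves caspases in target cells. Saline arrays ran from -4.64 to -3.98 and 10 ml/kg arrays from -4.83 to -4.56. Of the 10 ml/kg arrays, 4 of 5 lay below the lowest saline array and the remaining one lay inside the saline range. The difference was -0.26 ± 0.16 (limma adjusted p = 0.290). Its other probe gave -0.17. The lowest group was 5 ml/kg, at -5.36, -4.69, -4.80 and -4.53, with a difference from saline of -0.41 ± 0.17 (limma adjusted p = 0.576).

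Prf1, the gene of perforin, was at 0.72, 1.06, 0.45, 0.84 and 0.96 in saline and at 0.66, 0.75, 0.62, 0.64 and 0.58 at 10 ml/kg. The 10 ml/kg arrays lay inside the saline range. The difference was -0.15 ± 0.11 (limma adjusted p = 0.346); the fixed slide block gave -0.32.

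Nkg7 encodes a membrane protein of cytotoxic granules. It was at 0.36, 0.00, 0.02, 0.01 and 0.55 in saline and at 0.21, 0.46, 0.30, 0.59 and 0.20 at 10 ml/kg, with overlapping groups and a difference of 0.17 ± 0.12 (limma adjusted p = 0.360). Its sign turned with slide as a block (-0.09) and within slide 3 (-0.22). Every 10 ml/kg array was above every 5 ml/kg array for Nkg7, with a difference of 0.29 ± 0.13 (limma adjusted p = 0.163).

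Ifng encodes interferon gamma, the main cytokine that natural killer and cytotoxic T cells release. Its probe was well above background on 15 of 19 arrays. It read -5.50, -5.49, -6.51, -5.48 and -5.76 in saline and -5.62, -5.47, -5.22, -5.46 and -5.49 at 10 ml/kg, and the groups overlapped (difference 0.30 ± 0.17, limma adjusted p = 0.259). All 10 ml/kg arrays of Ifng were above all arrays at 2 ml/kg (-6.01 to -5.67) and at 5 ml/kg (-6.24 to -5.71). Those differences were 0.38 ± 0.17 and 0.45 ± 0.18 (limma adjusted p = 0.123 and 0.130). They passed the threshold in fits without saline replicate 3, the array with the lowest Ifng level (limma adjusted p = 0.0396 and 0.0300). That array is in neither comparison and was not well above background for Ifng. Leaving it out keeps both differences as they were and changes the shared estimate of the spread.

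Across volumes, 10 ml/kg corn oil was lower than 2 ml/kg and than 5 ml/kg for the same pair, Ncr1 and Klrb1a, and for no other member. These comparisons share the 10 ml/kg arrays with the comparison against saline. Against 2 ml/kg the differences were -2.78 ± 0.45 for Ncr1 (limma adjusted p = 0.00108) and -1.06 ± 0.20 for Klrb1a (0.00359), where 8.77% of all genes were lower. Against 5 ml/kg they were -2.06 ± 0.47 (0.0152) and -0.95 ± 0.21 (0.0120), where 4.40% of all genes were lower. The values for Ncr1 are again fitted ones. By the bound for dim groups it was at least 1.73-fold lower than at 2 ml/kg with the undetected arrays of slide 1 left out (2.27-fold with them, 2 of 5 arrays at 2 ml/kg being well above background). It was at least 1.38-fold lower than at 5 ml/kg, where 3 of 4 arrays were. With slide as a fixed block neither gene passed the threshold in these comparisons: Ncr1 differed by -2.02 and -2.60 (limma adjusted p = 0.152 and 0.0547) and Klrb1a by -0.85 and -0.75 (0.271 and 0.411).

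At 5 and 2 ml/kg no member passed the test against saline, and 0% of all genes did in limma, with 1878 and 209 genes at an unadjusted p under 0.05. At 5 ml/kg all 9 differences were negative, with a median of -0.38 beside -0.01 over all genes, and the largest was that of Ncr1 (-1.01 ± 0.47, limma adjusted p = 0.576). The fixed slide block turned the sign for Ncr1, to 0.44, and Gzma moved from -0.89 to -0.14 and Klrk1 from -0.52 to -0.08. Replicate 1 of the 5 ml/kg group was the lowest of its 4 arrays for 7 of the 9 genes, all but Klrk1 and Ifng. That array also had the lowest summed level of mature T cell markers (1.46, where no array of saline, 2 ml/kg or 10 ml/kg was below 1.78). At 2 ml/kg all 9 differences were negative as well, but lay between -0.29 and 0.00 with a median of -0.06, beside 0.04 over all genes. The mean of the corn oil groups against saline called no member either, where 0.101% of all genes were called; Ncr1 was at -1.45 ± 0.37 (limma adjusted p = 0.294) and Klrb1a at -0.66 ± 0.16 (0.268). Between 5 and 2 ml/kg no member differed in limma, and 0% of all genes did, with 1926 genes at an unadjusted p under 0.05.

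The group means of Ncr1 and Klrb1a descended in the order saline, 2 ml/kg, 5 ml/kg and 10 ml/kg corn oil. For Ncr1 the fixed slide block did not keep this order, with 5 ml/kg above 2 ml/kg by 0.58. On slide 2, 5 ml/kg was above by 0.38, which is not a measured size. The only 2 ml/kg array there, replicate 5, and replicate 1 at 5 ml/kg were not well above background. For Klrb1a the fixed block kept the order of the group means (-0.35, -0.45 and -1.19 against saline). Without the block, the first 3 groups in that order did not differ from their neighbours beyond the threshold, and 5 and 10 ml/kg did. No other member kept this order. For Klrk1, Gzma, Gzmb, Prf1, Nkg7 and Ifng the lowest mean was at 5 ml/kg, and no neighbouring pair of groups differed past the threshold for any of these 6 genes.

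The wider set of natural killer and cytotoxic genes held 171 genes besides the members, of which 137 had a probe and 133 were tested. At 10 ml/kg against saline 13 were lower and 6 higher (median -0.10), and 114 did not pass the test, where 3.54% of all genes were lower and 2.80% higher. The balance of directions turned with the scaling: 6 were lower and 9 higher after quantile normalization, and 7 lower and 16 higher after normexp. The share of higher calls among all genes rose too, as given above. The median of all genes moved from -0.13 to 0.06 and 0.03, so the turn is not particular to these genes. None of the 133 passed at 5 or 2 ml/kg or for the mean of the corn oil groups. Of the 19, 16 also differed between 10 and 2 ml/kg and 11 between 10 and 5 ml/kg, and 3 passed with slide as a fixed block: Ctsw, Ets1 and Ly49si2.

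Receptors gave the most calls, with 5 of 27 tested lower, 3 higher and a median of -0.48. After quantile normalization 1 was lower and 4 were higher (median -0.06), and after normexp 2 were lower and 7 higher (median 0.0053). The median of all genes was 0.06 and 0.03 in these fits. Klre1, a lectin-like receptor that pairs with the KLRI proteins, was at -3.83 to -2.47 in saline and at -5.16 to -4.28 at 10 ml/kg, with no overlap and a difference of -1.57 ± 0.23 (limma adjusted p = 0.000612). Klri2 fell by 1.62 ± 0.40 (limma adjusted p = 0.0205). Klrc2 and Klrc1, the activating and inhibitory NKG2 partners of CD94, differed by -2.26 ± 0.51 (0.0128) and -1.61 ± 0.46 (0.0468). Klrc2 was well above background on 3 of 5 saline arrays and 2 of 5 at 10 ml/kg, so its difference rests in part on undetected values. Klrc1 was well above background on 2 of 5 saline arrays and on none at 10 ml/kg. Its bound was at least 1.60-fold lower without the undetected saline arrays of slide 1 (1.95-fold with them). Fcgr3a, the Fc receptor for antibody-coated targets, which myeloid cells also carry, fell by 0.54 ± 0.11 (0.00642). Klrc1 lost its call in 25 of 33 alternatives, and genes of the Klrc family are so alike that a probe may read more than its own transcript.

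The receptors that rose were all of the Ly49 family, which binds MHC class I. Ly49si2 was at -4.74 to -4.40 in saline and at -3.93 to -3.19 at 10 ml/kg, without overlap (0.90 ± 0.13, limma adjusted p = 0.000415). Klra17 rose by 0.95 ± 0.15 (0.00120), also without overlap, and Ly49si1 rose by 1.81 ± 0.38 (0.00869). Ly49si1 was well above background on 3 of 5 saline arrays, so its difference rests in part on undetected values. With slide as a block the differences were 0.98 for Ly49si2 (limma adjusted p = 0.00896), 1.00 for Klra17 (0.0517) and 1.89 for Ly49si1 (0.0652). Ly49 genes are near-identical copies whose probes may cross-hybridise, so the single copy behind each value is uncertain.

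In their order on chromosome 4 (RefSeq, GRCr8) the 29 tested lectin-like genes, receptors and their ligands, fell into neighbouring stretches. Of the first 17, from Clec2l to Klri2, 15 had negative differences at 10 ml/kg, 5 were lower past the threshold (Klrb1a, Klre1, Klrc2, Klrc1 and Klri2) and none higher, with a median of -0.76. Of the 12 Ly49 genes that followed, from Ly49si1 to Klra2, 5 were negative and 7 positive, none was lower and 3 were higher past the threshold, with a median of 0.78. Among all genes tested 3.54% were lower and 2.80% higher, and the median was -0.13. After quantile normalization the negative counts were 11 of 17 and 3 of 12, with Klre1 the single gene of the first stretch still past the threshold and Klra2 added to the Ly49 genes. After normexp the negative counts were 12 of 17 and 2 of 12, with Klre1 and Klri2 lower and 7 Ly49 genes higher past the threshold. With slide as a fixed block they were 13 of 17 and 5 of 12, with Ly49si2 alone past the threshold. The median of all genes was 0.06, 0.03 and -0.01 in these fits, in the order given. The difference between these stretches was not tested.

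**Figure D3:**
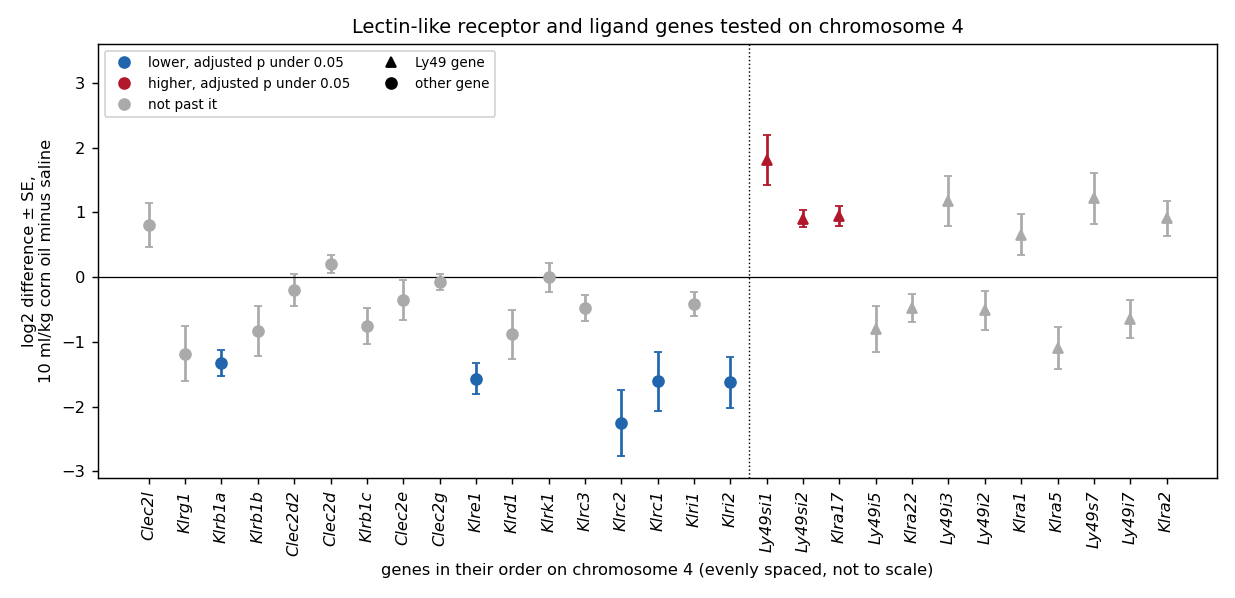
Log2 difference ± SE for 10 ml/kg corn oil minus saline (vertical axis) of 29 lectin-like receptor and ligand genes, evenly spaced in their order on chromosome 4. Triangles are Ly49 genes and circles the others; blue and red mark genes lower or higher at an adjusted p under 0.05. Calls left of the dotted line are lower (5 of 17) and those to its right are higher (3 of 12). Among all genes tested 3.54% were lower and 2.80% higher.

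Adaptors gave 1 call in 10 tested. Tyrobp encodes DAP12, the signalling partner of activating Ly49 receptors, which myeloid cells express too, and it rose by 0.48 ± 0.12 (limma adjusted p = 0.0282), from 2.97 to 3.42 in saline to 3.44 to 3.77 at 10 ml/kg. Hcst, the adaptor of NKG2D, differed by 0.25 ± 0.14 (0.242), and Fcer1g by 0.18 ± 0.12 (0.323).

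Among 21 granule and killing genes tested, 3 were lower and 2 higher, with a median of -0.06. Gzmm, a granzyme that cleaves after methionine, was at -1.13 to 0.11 in saline and -2.13 to -1.15 at 10 ml/kg, a difference of -1.15 ± 0.23 (limma adjusted p = 0.00617). Gzmk, a granzyme also found in memory T cells, fell by 1.37 ± 0.33 (0.0181). Ctsw, a cathepsin of cytotoxic cells, was at -1.12 to -0.83 in saline and -2.33 to -1.47 at 10 ml/kg, a difference of -0.89 ± 0.14 (0.000837). With slide as a block Ctsw was at -1.06 (0.0184), Gzmm at -1.22 (0.0819) and Gzmk at -1.57 (0.152). Gzmc rose by 0.83 ± 0.17 (0.00728), and its other probes gave 1.02 and 0.91. Srgn, the proteoglycan that packs granules in many blood cells, rose by 0.61 ± 0.14 (0.0134). Gzmf, at 1.00 ± 0.62, did not pass (0.295). It was well above background on no saline array and on 4 of 5 at 10 ml/kg, so its value is a fitted one.

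Of 14 transcription factors 1 passed. Ets1, which is needed for natural killer cells and is also abundant in T cells, was at -0.81 to 0.18 in saline and -2.67 to -0.58 at 10 ml/kg, a difference of -1.52 ± 0.34 (limma adjusted p = 0.0145), and the fixed slide block gave -1.56 (0.00319). On slide 3 only 2 of the 3 arrays at 10 ml/kg had a value for Ets1. Their mean was -2.62, beside -0.81 for the saline array there, and the 2 arrays on slide 5 had a mean of -0.86. Id3 (-1.62 ± 1.08) and Zbtb16 (-0.83 ± 0.50) did not pass (0.326 and 0.275). Id3 was well above background on 3 of 5 saline arrays and 2 of 5 at 10 ml/kg. Zbtb16 was so on 2 of 5 saline arrays and on none at 10 ml/kg, so its value is a fitted one. Of 30 cytokine and receptor genes, Il15, the survival cytokine of natural killer cells, fell by 0.45 ± 0.13 (0.0413) and Ccl3, a chemokine they release, fell by 0.92 ± 0.16 (0.00223). Ccl4, at -0.70 ± 0.28, and Itgae, at -1.03 ± 0.72, did not pass (0.132 and 0.351). Itgae was well above background on 2 of 5 saline arrays and 1 of 5 at 10 ml/kg. With slide as a block Il15 was at -0.41 (0.293) and Ccl3 at -0.91 (0.0600).

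Ligands of these receptors gave 2 calls in 14, both lower. Raet1l, of the family bound by NKG2D, was at -4.07 to -3.18 in saline and -4.88 to -4.17 at 10 ml/kg (-0.95 ± 0.16, limma adjusted p = 0.00175; -0.55 with slide as a block, 0.144). Cd1d1, which presents lipids to natural killer T cells, fell by 0.31 ± 0.08 (0.0380). Nectin2 differed by -0.36 ± 0.17 (0.187) and Clec2l by 0.81 ± 0.34 (0.147). None of 17 interferon gamma targets passed (median 0.14), the largest differences being those of Nos2 (-0.88 ± 0.48, 0.243), Ido1 (0.54 ± 0.19, 0.101) and Ciita (-0.48 ± 0.30, 0.300). Ido1 was higher past the threshold after quantile normalization, and Ido1, Irf1 and Irgm were after normexp.

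**Figure D4:**
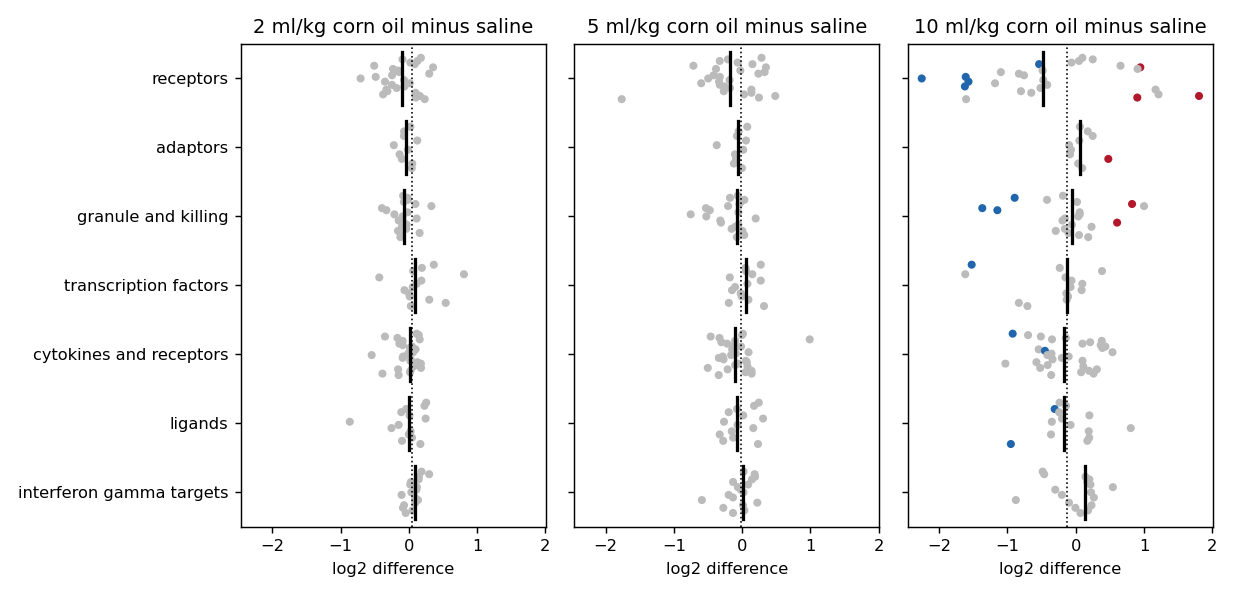
Log2 differences from saline (horizontal axes) of the tested genes of 7 lists at 2, 5 and 10 ml/kg corn oil. Each point is a gene, blue or red where lower or higher at an adjusted p under 0.05; thick lines are list medians and the dotted line is the median of all genes. Coloured points appear at 10 ml/kg alone, 8 of the 19 among the receptors.

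Between volumes of corn oil, 12 of the 133 genes were lower and 17 higher at 10 than at 2 ml/kg, where 8.77% and 3.69% of all genes were, and 7 were lower and 13 higher at 10 than at 5 ml/kg, where 4.40% and 3.53% of all genes were. Several of these were not called against saline. Of those, which are named here, none passed with slide as a fixed block; limma adjusted p-values were then 0.349 and 0.370 for Klra2, 0.166 and 0.123 for Stat4, 0.288 for Tnf and 0.756 for Klra5. Of the Ly49 genes, Klra2 (1.14 and 1.29, limma adjusted p = 0.0143 and 0.0116) and Klra1 (1.16 and 1.37, 0.0301 and 0.0218) were higher against both volumes. Klra1 was well above background on 1 of 5 arrays at 2 ml/kg and 1 of 4 at 5 ml/kg, so its values are fitted ones. Ly49s7 (1.59, 0.0174) and Ly49i3 (1.50, 0.0225) were higher against 2 ml/kg, and Klra5 was lower against 5 ml/kg (-1.42, 0.0195), where its bound is at least 1.52-fold. The signal transducer gene Stat4 (0.47 and 0.52, 0.0106 and 0.00883), the interferon gamma receptor gene Ifngr2 (0.45 and 0.48, 0.0374 and 0.0483), the vesicle fusion gene Stx7 (0.33 and 0.34, 0.0333 and 0.0483) and the class I gene RT1-M3-1 (0.27 and 0.45, 0.0250 and 0.00180) were higher against both. Against 2 ml/kg alone, Tnf (0.65, 0.00571), Vamp8 (0.31, 0.0374) and Clec2l (1.06, 0.04998) were higher and Fas (-0.41, 0.0496) and Il12rb1 (-0.64, 0.0302) lower. Ly49s7, Ly49i3 and Clec2l were each well above background on 3 of 5 arrays at 2 ml/kg, so their differences rest in part on undetected values. Against 5 ml/kg alone, Lta (0.81, 0.0225) and Ltb (0.56, 0.0488) were higher.

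Markers of other cell types were set beside the 10 ml/kg comparison, as log2 of their summed level per array. All 7 tested neutrophil markers were higher in the mean, 3 past the threshold (Lcn2, S100a9 and Mmp8), and the summed level of the 6 measured on every array ran from 1.28 to 3.00 in saline and from 3.19 to 3.93 at 10 ml/kg. All 5 mast cell markers were higher in the mean, with Tpsab1 past the threshold. Their summed level ran from -1.96 to -1.06 in saline and from -1.23 to -0.78 at 10 ml/kg. All 4 B cell markers were higher in the mean, with Blnk past the threshold. Their summed level ran from -0.43 to 2.37 in saline and from 0.32 to 0.95 at 10 ml/kg. None of 11 thymocyte (7.25 to 7.73 and 7.20 to 7.61), 8 mature T cell (1.78 to 2.47 and 1.91 to 2.18), 7 thymic epithelium (2.58 to 2.89 and 2.60 to 3.21), 7 macrophage and dendritic cell (4.17 to 4.66 and 4.24 to 4.77) or 6 adipocyte markers (2.30 to 4.79 and 2.31 to 4.00) passed. Of 5 erythroid markers Hba-a3 was higher past the threshold, and its probe was well above background on 9 of 19 arrays. The summed erythroid levels overlapped, at 2.40 to 4.96 in saline and 3.25 to 4.69 at 10 ml/kg. Saline replicate 2 set the upper saline end for B cell, mast cell, mature T cell, erythroid and adipocyte markers. It set the lower saline end for neutrophil, thymocyte and thymic epithelium markers. Lcn2 and Hba-a3 still passed with slide as a fixed or a random block, and S100a9, Mmp8, Tpsab1 and Blnk did not. Tyrobp, Srgn and Fcgr3a are expressed in myeloid cells as well, and the part of these cells in the results above was not tested.

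The genes whose pattern was most like the 9 members, by Pearson correlation over 19 arrays with the mean standardised profile of the members after each slide's mean had been removed, were Liph (0.92), Vipr1 (0.88), Pja1 (0.87), Klf2 (0.85) and Crabp1 (0.84). Without removal of the slide means the same genes were at 0.83, 0.31, 0.53, 0.32 and 0.35. The members themselves correlated with their own mean profile, of which each is a part, from 0.16 (Ifng) and 0.22 (Klrk1) to 0.77 (Prf1) and 0.85 (Gzmb). Ncr1 was at 0.52 and Klrb1a at 0.70. The arrays share slides and groups, so these values describe the pattern and carry no test.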

How the data were processed

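Thymus RNA for the 19 arrays was labelled with Cy3 and hybridised to 1-colour Agilent arrays, per the labels' protocols. The authors deposited linear spot intensity values read out by Feature Extraction (version 10.7.3.1 in the file headers), and a series table of intensity values scaled per array by an unstated factor. Flags such as well above background come from the same deposited files. Spots flagged as non-uniform or population outliers were left out and spots of a probe averaged. Accessions were matched to RefSeq symbols of GRCr8 (17328 of 30367 probes); no coordinates of array features are printed because the arrays were designed on rn4, per the file headers. Probes well above background on at least 4 arrays, with 2 or more values in each group, were kept, and the brightest probe stood for a gene (25474 probes, 22662 genes). limma 3.58.1 in R 4.3.3 fitted all 19 arrays (15 residual degrees of freedom, two-sided, 7 contrasts), and the script was tested on simulated data. The simulated arrays had independent noise, no slide effect and no limit of detection. They check the working of the script and not the error rate of the calls made here. The number of arrays limits precision. The labels do not say what replicate numbers stand for, and they were not used to pair arrays. Of 27 same-numbered pairs, 6 had correlated deviations above 0.1, over a range of -0.64 to 0.71. Deviations also followed the slide (median correlation 0.38 on the same slide, -0.06 otherwise), so this check cannot decide on a pairing.

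Named genes were all members, listed genes called in a contrast or among the 3 largest differences of their list at 10 ml/kg, and the 5 genes most alike. Members and lists were chosen with earlier results of these data known. The normexp alternative used the median in place of the mean spot signal, with an offset of 50.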

Additional observations from a re-analysis of the deposited data

Results flagged for a closer look

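Ncr1 and Klrb1a differed between volumes of corn oil, by tests of the difference itself: Ncr1 by -2.78 between 10 and 2 ml/kg and by -2.06 between 10 and 5 ml/kg, and Klrb1a by -1.06 and -0.95. The values for Ncr1 are fitted ones, since no array at 10 ml/kg was well above background. None of these passed with slide as a fixed block (limma adjusted p = 0.152 and 0.0547 for Ncr1, 0.271 and 0.411 for Klrb1a). Of 36 sets of arrays, a member in a group, 2 held an array far from the others, where chance gives about 1 in 20. Replicate 1 of the 2 ml/kg group was at 0.40 for Nkg7, with the next array at 0.11. Saline replicate 3 was at -6.51 for Ifng, on an array where the probe was not well above background, with the next at -5.76.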

How the results depend on the processing

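For 10 ml/kg against saline, members called fell from 2 to 1 after quantile normalization, after normexp or with at least 15 arrays well above background (a filter that removes Ncr1), and to 0 with slide as a fixed block; leaving out 1 array gave 2 to 3. Klrb1a was at -0.81 after quantile normalization (limma adjusted p = 0.0742) and -0.43 after normexp (0.0727), and Ncr1 at -0.32 after normexp (0.0213). The other genes called numbered 3 with slide as a fixed block, 8 with only the groups compared, 43 with array weights, 10 without slide 1, 10 without slide 3 and 12 to 26 leaving out 1 array (12 without 10 ml/kg replicate 3). For 10 against 2 ml/kg, 1 member was called after quantile normalization, after normexp, at 15 arrays, with slide as a random block, without slide 3 or with scan day as a block, 0 with slide as a fixed block, and 2 to 3 leaving out 1 array. For 10 against 5 ml/kg, 1 was called after quantile normalization, at 15 arrays, with slide as a random block, with only the groups compared or with scan day as a block, 0 after normexp, with slide as a fixed block or without slide 3, and 1 to 3 leaving out 1 array (1 without 5 ml/kg replicate 3). Il12rb1, 10 against 2 ml/kg, turned to 0.0087 after quantile normalization. Of single genes at 10 ml/kg against saline, Klrc1 lost its call in 25 of 33 alternatives, Il15 in 19 of 34, Cd1d1 in 17 of 34 and Tyrobp in 13 of 34. Fas lost its call against 2 ml/kg in 27 of 34 and Ifngr2 its call against 5 ml/kg in 26 of 34. Beyond the 15-array filter, the causes were not tested. The alternatives without slides and with scan day were chosen after seeing the data. The median of all genes moved from -0.13 to 0.06 after quantile normalization and 0.03 after normexp, and the share of calls that were higher from 44.1% to 73.2% and 76.0%. With a replicate block, 2 members and 15 other genes were called at 10 ml/kg (Ncr1 -3.06), and no count of members changed. The labels do not say what these numbers stand for, and 6 of 19 arrays correlated best with their own number. By the laxer flag for signal over background, Ncr1 was detected on 17 rather than 8 arrays; dim probes such as Ncr1 and Klrc1 are limited by background.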
